A study of Mus musculus with 12 samples.

Results

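The 9 genes Gad1, Gad2, Slc32a1, Pvalb, Calb2, Lhx6, Adarb2, Reln and Htr3a identify GABAergic interneurons, the inhibitory local-circuit neurons of the cortex. They were taken by symbol from the 25238 genes of a read count table, and all 9 were found and passed the filter on low counts in every comparison. Interneuron neuropeptide genes were left out of the set by rule. The table comes from RNA-seq of mouse peri-infarct cortex, with 4 libraries in each of 3 groups and 1 library per mouse. The study asked how blocking PTPσ, a neuronal receptor for the chondroitin sulfate proteoglycans of the glial scar, alters gene expression in cortex next to a stroke.

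The Veh and ISP groups were stroke mice. The methods describe the study's stroke mice as 10 to 12 weeks old, with the left middle cerebral artery occluded for 45 min. These mice were male C57BL/6J or a Nestin-creER-Ai9 reporter line, for which the methods name both sexes. The strain and sex of the sequenced mice were not given in the sources used here. ISP mice received intracellular sigma peptide, a cell-entering peptide directed at PTPσ, under the skin once daily (1 μg/g/day) beginning on day 1 after the stroke, and tissue was taken at day 14. Veh mice were given the carrier, 5% DMSO in saline, according to the labels and methods, although the results text of the study speaks of a scrambled peptide. The 4 libraries named control carry the same tissue label, but their surgery, treatment, day, sex and age were not given in the sources used here. Tissue came from micro-punches of 1 mm, so each library mixes neurons of all layers with glia, vessels and infiltrating cells.

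GABAergic neurons make GABA from glutamate with 2 decarboxylases, GAD67 (Gad1) and GAD65 (Gad2), and load it into synaptic vesicles with the transporter VGAT (Slc32a1). Most cortical interneurons come from 2 embryonic sources. Cells of the medial ganglionic eminence (MGE) express the transcription factor Lhx6 and become Pvalb or Sst neurons, which are frequent in middle and deep layers. Cells of the caudal ganglionic eminence (CGE) express Adarb2 and Htr3a, become Vip, Lamp5 and Sncg neurons, and are most frequent in the upper layers. Adult Reln is found in layer 1 and neurogliaform cells and in part of the Sst cells, and Calb2 in part of the Vip and Sst cells.

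Total counts were 21322702 to 29845629 for control, 17442711 to 24706638 for Veh and 19325979 to 28685864 for ISP. The 18 pairs of libraries within a group differed by 11.1 to 50.9 chi-square per degree of freedom, so none was a repeat of another. Several libraries stood apart in their cell types. Relative to the mean of the 12 libraries, the mean log2 CPM (CPM being read counts scaled to the size of the library) of a microglia list was 1.51 in ISP 14 and 1.34 in ISP 18 and between -0.72 and 0.46 in the other 10 libraries, and that of a leptomeninges list was 2.47 in Veh 10, where the next highest library was at 1.07. A list of deep-layer excitatory genes ranged from -0.91 to 0.51 in control, from -0.89 to 0.53 in Veh and from 0.10 to 0.79 in ISP. The labelled tissue was checked against its markers: excitatory cortical genes were abundant, with Slc17a7 at 2056 to 2349 CPM in the group means. A list of 10 striatal projection neuron genes, which are GABAergic cells below the cortex, summed to 309 to 378 CPM over all libraries. Its highest genes were Ppp1r1b (118.7 to 134.9 CPM in the group means) and Rasd2 (93.8 to 103.8). Drd1 and Drd2 were at 1.00 to 7.48 CPM. At an adjusted p under 0.1 from edgeR, 0 of its 9 tested genes were called in each comparison. Of all genes, 0.0% were called for ISP with Veh, 2.23% for Veh with control and 10.2% for ISP with control. The share of striatal cells was not tested.

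Levels were set beside each other as TMM-normalized CPM divided by the exon length of the gene in kb. That length joins the exons of all annotated transcripts, from 1041 bases for Pvalb to 23738 for Reln. It can exceed the length of the transcripts expressed, and the order between genes depends on it. In control, Pvalb, the parvalbumin gene of fast-spiking basket and chandelier cells, was highest at 119.5 ± 15.4 CPM per kb (SD, n = 4). Slc32a1 at 43.3 ± 0.859 and Gad1 at 42.3 ± 3.58 CPM per kb came next and overlapped in their libraries. Gad2 followed at 20.7 ± 2.57 CPM per kb, Lhx6 at 5.84 ± 0.733 and Calb2, the gene of calretinin, at 3.33 ± 0.851. Reln at 1.55 ± 0.144 and Htr3a at 1.28 ± 0.522 CPM per kb overlapped, and Adarb2 was lowest at 0.572 ± 0.116. The order of the level per kb was the same in the other groups except for the 2 overlapping pairs. Gad1 lay above Slc32a1 in ISP (44.0 ± 2.60 against 40.8 ± 3.89 CPM per kb, n = 4), and Htr3a lay above Reln in Veh (2.81 ± 0.891 against 1.68 ± 0.314) and in ISP (1.52 ± 0.355 against 1.19 ± 0.0728). The MGE genes and the shared GABA genes rested on many reads per library, from 490 for Lhx6 in control 38 to 9605 for Gad1 in ISP 18. Htr3a rested on 40 to 134 reads, Calb2 on 90 to 192 and Adarb2 on 108 to 276, and 40 reads carry a 95% Poisson interval of 28.6 to 54.5, which covers counting error only.

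The first comparison, ISP with Veh, asks what the peptide changed after stroke. Reln, Adarb2, Htr3a and Calb2 were lower in the ISP group by 0.50 to 0.88 on the log2 scale, while Gad1, Gad2, Pvalb and Lhx6 differed by at most 0.14 in either direction. None of the 9 genes passed an adjusted p of 0.1 in edgeR's quasi-likelihood test with Benjamini-Hochberg adjustment, and that test called 0.0% of the 15214 genes tested. The first 4 genes had unadjusted p-values under 0.05 from edgeR, which was the case for 15.3% of all genes tested. DESeq2, the tool of the study, called 2 of the 9, Reln and Adarb2, against 2.45% of 16363 genes (1.33% lower). These calls use the adjusted p alone, and both genes also lay beyond the log2 fold change of 0.5 that the methods name, in the lower direction (-0.51 and -0.65 from DESeq2). Groups did not overlap for 3 of the 9, Reln, Adarb2 and Calb2, all lower with ISP, against 3.96% of all genes that were lower without overlap. The median log2 fold change over the 9 genes was -0.19, and over all genes tested it was 0.02. In bulk tissue, fewer cells of a type and less RNA per cell cannot be told apart. Other cell types moved in the same comparison. The microglia list had a median log2 fold change of 0.94 (8 of 10 genes higher at an unadjusted p under 0.05, summed level 548 to 1874 CPM in ISP and 471 to 847 in Veh) and the oligodendrocyte list one of 0.69 (7 of 10 higher, 4902 to 11740 against 2932 to 7265 CPM). The pan-neuronal list had a median of -0.15 (4 of 15 lower and 1 higher, 15210 to 18450 against 16550 to 19820 CPM), and the part of these lists in the values of the 9 genes was not tested.

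**Figure D1:**
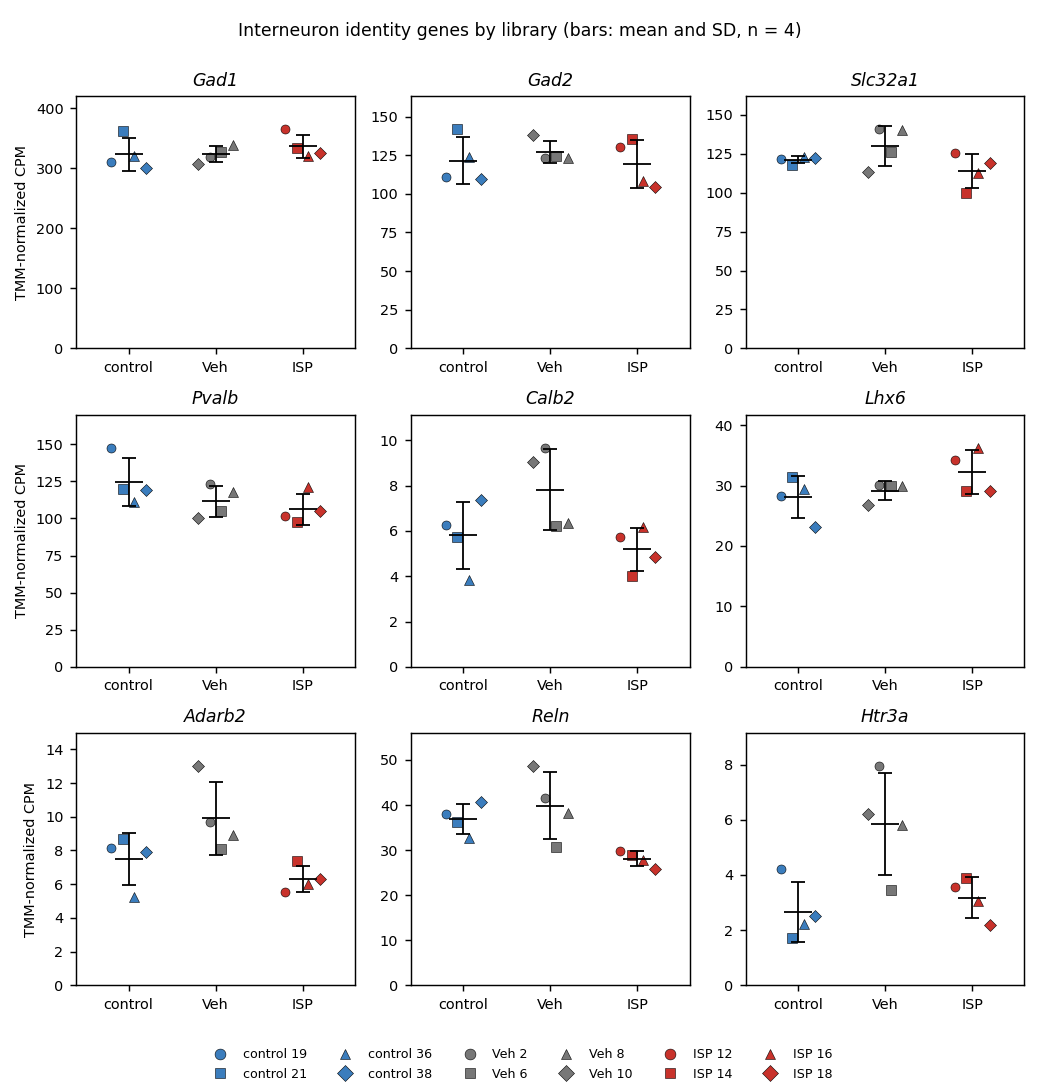
TMM-normalized CPM (y axis, from 0) of the 9 interneuron identity genes in each of the 12 libraries, with control in blue, Veh in grey and ISP in red; bars give the mean and SD of 4 libraries. All 4 ISP libraries lie below all 4 Veh libraries for Reln, Adarb2 and Calb2, while Gad1, Gad2, Pvalb and Lhx6 overlap between all groups.

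Of the genes shared by all interneurons, Gad1 was at 308 CPM in Veh 10, 319 in Veh 2, 327 in Veh 6 and 339 in Veh 8, and at 365, 334, 321 and 325 CPM in the libraries ISP 12, 14, 16 and 18. The groups overlapped, and the log2 fold change was 0.06 (95% interval -0.10 to 0.21, adjusted p = 0.722 from edgeR). Gad2 was at 137.9, 123, 125 and 123 CPM in Veh 10, 2, 6 and 8, and at 130.3, 135, 108 and 104.5 CPM in ISP 12, 14, 16 and 18. The ISP libraries spanned the wider range and overlapped Veh, with a log2 fold change of -0.09 (95% interval -0.30 to 0.12, adjusted p = 0.668 from edgeR). Slc32a1 was at 113.5, 141, 126 and 140.1 CPM in Veh 10, 2, 6 and 8, and at 125, 99.7, 112.5 and 119 CPM in ISP 12, 14, 16 and 18. The 2 highest values were Veh libraries and the lowest an ISP library, but the groups overlapped and the log2 fold change of -0.19 had an interval of -0.40 to 0.02 (adjusted p = 0.359 from edgeR).

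Of the MGE genes, Lhx6 was at 26.8, 30.1, 29.9 and 29.9 CPM in Veh 10, 2, 6 and 8, and at 34.3, 29.0, 36.3 and 29.2 CPM in ISP 12, 14, 16 and 18. Only ISP 12 and ISP 16 lay above the Veh libraries, and the log2 fold change was 0.14 (95% interval -0.07 to 0.35, adjusted p = 0.503 from edgeR). Pvalb was at 100.5, 123, 105 and 118 CPM in Veh 10, 2, 6 and 8, and at 101.5, 97.5, 121 and 105 CPM in ISP 12, 14, 16 and 18. Its groups overlapped over nearly their whole range, with a log2 fold change of -0.07 (95% interval -0.27 to 0.13, adjusted p = 0.740 from edgeR). The intervals of Gad1, Gad2, Lhx6 and Pvalb reached at most 0.35 on the log2 scale in either direction, for the 4 mice per group and TMM scaling used here.

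Reln encodes reelin, a secreted glycoprotein that guides layering in development and acts on synapses in adult cortex. It was at 48.7 CPM in Veh 10, 41.7 in Veh 2, 30.7 in Veh 6 and 38.3 in Veh 8, and at 29.9, 29.0, 27.7 and 25.9 CPM in the libraries ISP 12, 14, 16 and 18. The 4 ISP values were tightly grouped below all Veh values, but Veh 6 lay next to them. From 766 reads in Veh 6 the 95% Poisson interval was 28.6 to 33.0 CPM, and from 580 reads in ISP 12 it was 27.5 to 32.4 CPM, so the gap between the nearest libraries was within counting error. The log2 fold change was -0.50 (standard error 0.13), with an adjusted p of 0.262 from edgeR and 0.0472 from DESeq2. Without Veh 6 the log2 fold change was -0.61 and edgeR called it (adjusted p = 0.0714).

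Adarb2 belongs to the family of RNA-editing adenosine deaminases and marks the CGE lineage. It was at 13.01, 9.67, 8.10 and 8.89 CPM in Veh 10, 2, 6 and 8, and at 5.56, 7.39, 5.98 and 6.33 CPM in ISP 12, 14, 16 and 18. Every ISP library was below every Veh library, with Veh 10 far above the rest. The log2 fold change was -0.65 (standard error 0.19), with an adjusted p of 0.262 from edgeR and 0.0843 from DESeq2, and it was -0.50 without Veh 10 (adjusted p = 0.241 from edgeR).

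Htr3a encodes a subunit of the serotonin-gated 5-HT3 channel and marks the CGE lineage. It was at 6.22, 7.95, 3.45 and 5.81 CPM in Veh 10, 2, 6 and 8, and at 3.55, 3.90, 3.04 and 2.20 CPM in ISP 12, 14, 16 and 18. Of the Veh libraries, 3 lay above all ISP libraries, and Veh 6 lay among them. Its log2 fold change of -0.88 (standard error 0.29) was the largest in size of the 9 genes and had the widest interval, -1.51 to -0.25, with an adjusted p of 0.267 from edgeR and 0.1195 from DESeq2. Calb2 was at 9.05, 9.67, 6.21 and 6.35 CPM in Veh 10, 2, 6 and 8, and at 5.72, 4.03, 6.17 and 4.84 CPM in ISP 12, 14, 16 and 18. Its groups just missed each other, since the 155 reads in Veh 6 and the 128 reads in ISP 16 had overlapping Poisson intervals (5.27 to 7.27 and 5.15 to 7.34 CPM). The log2 fold change of Calb2 was -0.59 (standard error 0.22), with an adjusted p of 0.277 from edgeR.

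DESeq2's call for Reln and Adarb2 did not hold in most fits with 1 library fewer. With 1 of the 8 libraries left out in turn, it called 0 to 3 of the 9 genes: 3 without Veh 6, 1 without ISP 12 or ISP 16, and 0 without any of Veh 2, Veh 8, Veh 10, ISP 14 and ISP 18. It also called 0 without ISP 14 and ISP 18 together, which are the libraries of high microglia content. The share of all genes called in these smaller fits is not given here. With 1 library left out, the log2 fold change from edgeR stayed between -0.61 and -0.40 for Reln. For Adarb2 it stayed between -0.74 and -0.50.

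**Figure D2:**
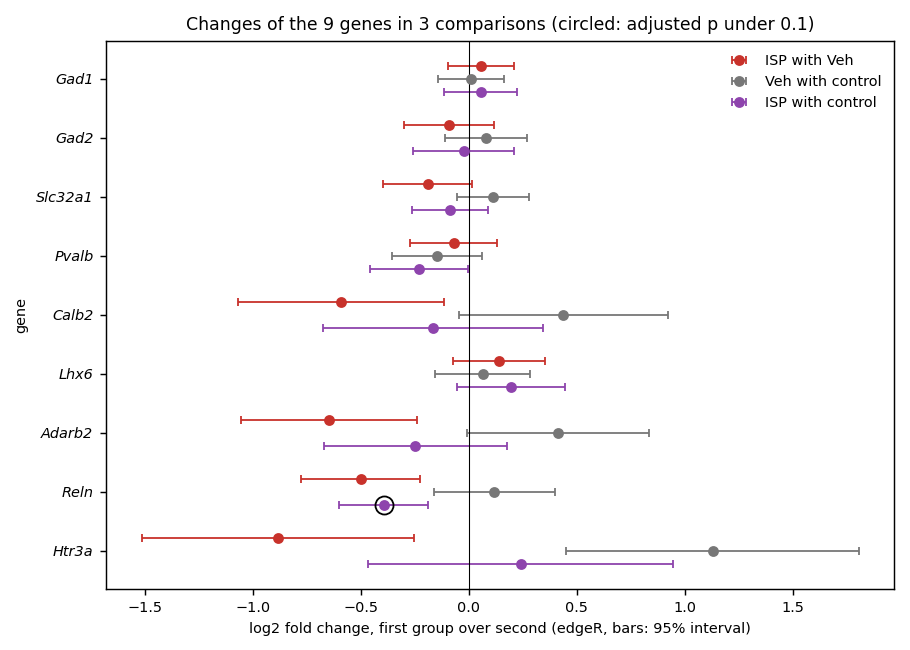
Log2 fold change from edgeR (x axis) of each of the 9 genes (y axis) for ISP over Veh in red, Veh over control in grey and ISP over control in purple, with 95% intervals as bars and n = 4 libraries per group. The single circled point, Reln in ISP with control at -0.39, passed an adjusted p of 0.1, and the red intervals of Reln, Adarb2, Htr3a and Calb2 lie below 0.

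Reln and Adarb2 are the 2 genes that DESeq2 called lower with ISP, so the 250 bases before their RefSeq starts (build GRCm38.p6) are shown, 5′ to 3′ on the strand of the gene. Capitals mark the 6-base motifs searched on both strands: TAATTA, a core letter string of homeodomain binding that reads the same on both strands and was counted once, TATAAA, the TATA box, and GGGCGG, the GC box. The Reln stretch is chr5:22344706-22344955 on the minus strand, and the Adarb2 stretch is chr13:8202616-8202865 on the plus strand.
Reln: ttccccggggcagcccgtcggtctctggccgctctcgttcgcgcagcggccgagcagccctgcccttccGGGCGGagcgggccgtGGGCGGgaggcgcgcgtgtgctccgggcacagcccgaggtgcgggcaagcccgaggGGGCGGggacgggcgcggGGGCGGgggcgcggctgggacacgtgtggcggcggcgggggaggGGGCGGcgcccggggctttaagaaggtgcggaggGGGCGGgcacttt
Adarb2: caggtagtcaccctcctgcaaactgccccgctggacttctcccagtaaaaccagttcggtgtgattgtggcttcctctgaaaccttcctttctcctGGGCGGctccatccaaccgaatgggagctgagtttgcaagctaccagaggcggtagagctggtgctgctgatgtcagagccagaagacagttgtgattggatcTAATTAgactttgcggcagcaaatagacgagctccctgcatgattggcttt
The Reln stretch held 6 GGGCGG matches, a number reached by 0.886% of 32851 promoters in the table, and 37 CG dinucleotides, more than 97.8% of promoters. It held no TAATTA and no TATAAA. The Adarb2 stretch held 1 GGGCGG match, 1 TAATTA match and 7 CG dinucleotides, more than 53.7% of promoters. Over all promoters of this length, 32.7% held GGGCGG, 4.84% held TAATTA and 12.4% held TATAAA. Of the 9 genes, 7 had a promoter in the table, with 10 promoters between them, of which 5 held GGGCGG, 1 TAATTA and 1 TATAAA. Both stretches shown held the GC box, and only the Adarb2 stretch held TAATTA, which describes their letters alone.

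The other genes of each interneuron class were read in the same way, as lists. Of 10 other genes shared by GABAergic neurons, edgeR and DESeq2 called 0 in each of the 3 comparisons. In ISP with Veh, 0 had an unadjusted p under 0.05 from edgeR, against 15.3% of all genes tested. In Veh with control 2 did, both lower (16.3% of genes), and in ISP with control 4, 3 lower and 1 higher (22.3%). The list had a median log2 fold change of 0.02 for ISP with Veh. The homeobox factors Dlx1, Dlx2 and Dlx5 had log2 fold changes of 0.07, -0.09 and -0.02 there. Against control, Dlx5 was at -0.47 in Veh and -0.50 in ISP, while Dlx1 and Dlx2 were at 0.11 to 0.22. Of 11 tested other MGE genes, edgeR called 0 for ISP with Veh (2 had an unadjusted p under 0.05, both higher), with a list median of 0.08. Sox6 and Satb1, transcription factors that follow Lhx6 in MGE cells, had log2 fold changes of 0.21 and 0.17.

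Of 12 tested other CGE genes, 4 were lower and 1 higher with ISP than with Veh at an unadjusted p under 0.05, edgeR called 0 after adjustment, and the list median was -0.47. DESeq2 called 1 of them, Npas1, a transcription factor gene, at 13.9 ± 2.10 CPM in ISP and 19.4 ± 1.96 in Veh (SD, n = 4, log2 fold change -0.48, adjusted p = 0.0912 from DESeq2 and 0.262 from edgeR), with groups that did not overlap. Nr2f2, an orphan nuclear receptor gene, had a log2 fold change of -0.66, and Lamp5, which marks a class of CGE interneurons and is also found in upper-layer excitatory cells, -0.68. Prox1, a homeobox factor needed by CGE cells, had the opposite sign, at 0.54 (adjusted p = 0.286 from edgeR). The list did not move as one, and single libraries weighed on it. Its mean log2 CPM relative to the 12 libraries was 0.57 in Veh 10 and 0.31 in Veh 2, but -0.10 in Veh 8 and -0.20 in Veh 6, against -0.35 to -0.02 in the ISP libraries.

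**Figure D3:**
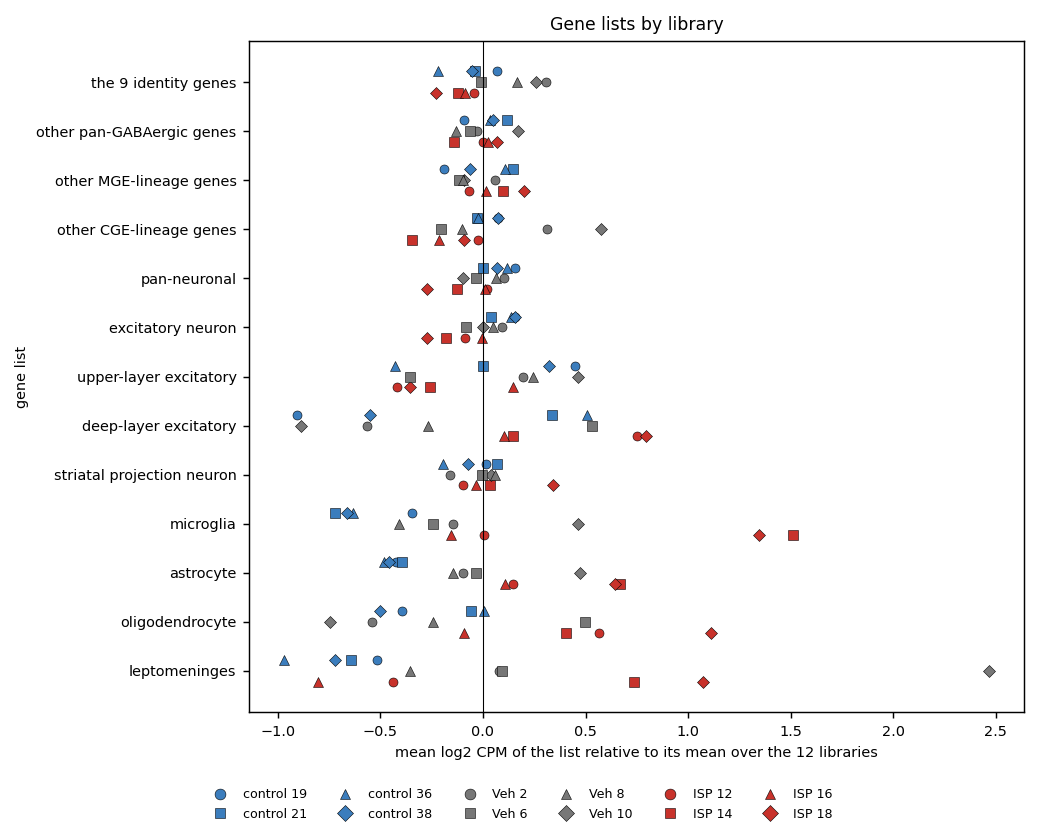
Mean log2 CPM of each gene list (y axis) relative to its mean over the 12 libraries (x axis), 1 symbol per library, with control in blue, Veh in grey and ISP in red. The 9 identity genes lie within -0.23 and 0.31 and the other pan-GABAergic genes closer still, while the deep-layer list runs from -0.91 to 0.79 and Veh 10 stands at 2.47 for the leptomeninges.

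Between ISP and Veh, the level of deep-layer genes moved in the direction opposite to Reln, Adarb2, Htr3a and Calb2. The deep-layer excitatory list (10 genes, Foxp2, Fezf2, Bcl11b and Tle4 first) had a median log2 fold change of 0.65 for ISP with Veh, with 5 genes higher at an unadjusted p under 0.05, and the upper-layer list (10 genes) one of -0.29, with 5 lower. Of these, DESeq2 called 1 deep-layer gene higher and 3 upper-layer genes lower, and edgeR called 0 of either list, as of all genes. The summed level of the deep-layer list was 411 to 560 CPM in ISP and 242 to 503 in Veh, and that of the upper-layer list 353 to 496 in ISP and 371 to 686 in Veh. Veh 6, the Veh library with the lowest Reln, Adarb2, Htr3a and Calb2, was also the Veh library with the highest deep-layer list, at 0.53, and Veh 10, with the highest Reln and Adarb2, had the lowest, at -0.89. In control the same order was seen for Reln, which was 38.1 and 40.7 CPM in the 2 libraries of low deep-layer level (control 19 at -0.91 and control 38 at -0.55) and 36.2 and 32.6 CPM in the 2 of high level (control 21 at 0.34 and control 36 at 0.51). Htr3a was 4.22 and 2.51 CPM in the first pair and 1.71 and 2.21 in the second, and Calb2 6.24 and 7.38 against 5.74 and 3.82. Adarb2 did not keep this order, with 8.13 and 7.90 CPM in the first pair and 8.70 and 5.27 in the second. Nor did Reln within ISP, where it was 27.7 and 29.0 CPM in ISP 16 and ISP 14 (deep-layer list at 0.10 and 0.15) and 29.9 and 25.9 CPM in ISP 12 and ISP 18 (0.75 and 0.79).

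With the deep-layer level as a covariate in 1 fit of all 12 libraries, an alternative chosen after the values were seen, the log2 fold change of ISP with Veh was -0.29 for Reln, -0.40 for Adarb2, -0.34 for Htr3a and -0.29 for Calb2, with adjusted p-values of 0.4815 to 0.776 from edgeR. Those of Gad1 and Lhx6 were -0.01 and 0.07. ISP and Veh libraries overlapped in the deep-layer list only through Veh 6. The list also holds Nr4a2, a gene that the study reported as changed with ISP. The covariate may thus carry part of a response to the peptide, and layer content and such a response cannot be told apart in this fit.

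**Figure D4:**
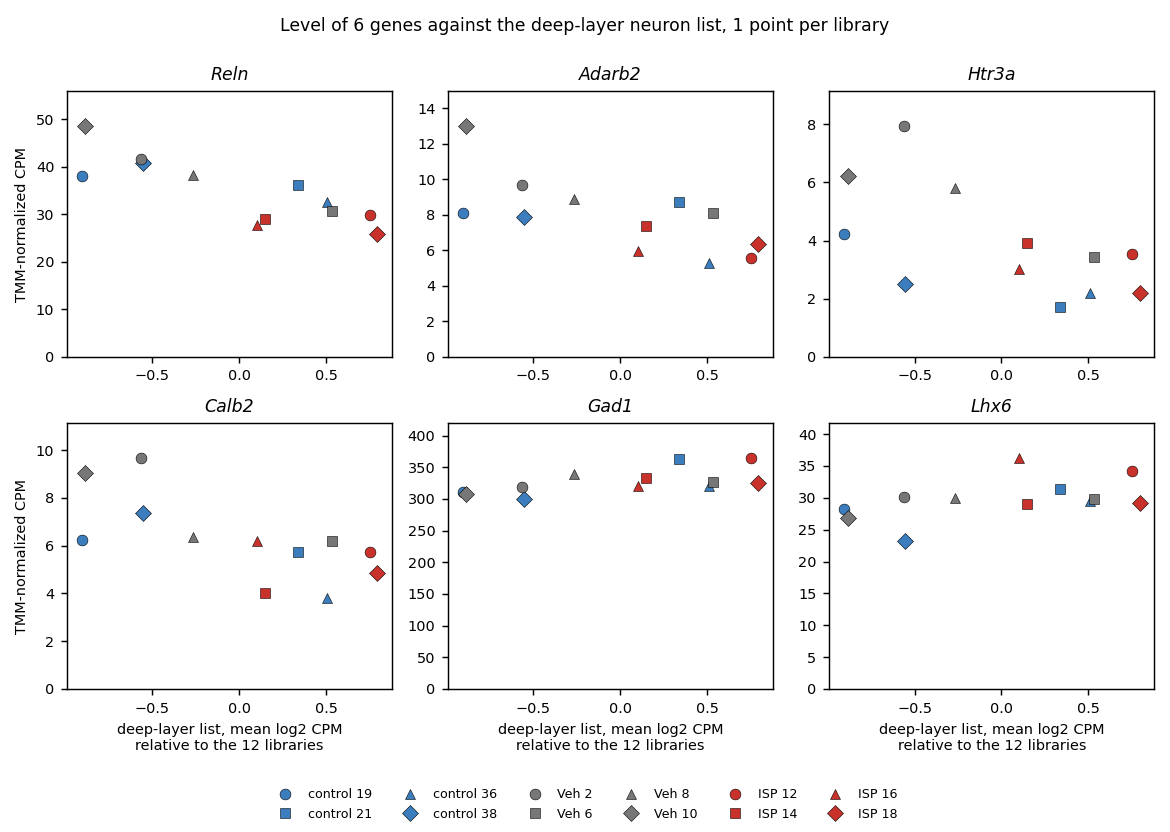
TMM-normalized CPM of Reln, Adarb2, Htr3a, Calb2, Gad1 and Lhx6 (y axis, from 0) against the mean log2 CPM of the deep-layer excitatory list relative to the 12 libraries (x axis), 1 point per library. Reln is above 38 CPM in the 5 libraries of lowest deep-layer level and below 37 CPM in the other 7, while Gad1 stays between 300.1 and 365 CPM along the axis.

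The other possible sources of Reln and of GABAergic transcripts were read as well. Of the Cajal-Retzius list, whose cells express Reln in layer 1, the 6 genes summed to 1.64 to 9.29 CPM over the 12 libraries, 1 or 2 passed the filter, and Lhx5 had 0 reads in every library. The leptomeninges list, which follows the cortical surface, had a median log2 fold change of -0.54 for ISP with Veh and 1.85 for Veh with control, and was highest in Veh 10, the library with the highest Reln and Adarb2. Its summed level was 340 to 467 CPM in ISP, 275 to 961 in Veh and 182 to 258 in control. Its part in these values was not tested. Without Veh 10 the log2 fold change of Reln in ISP with Veh was -0.40 and that of Htr3a -0.86, with adjusted p-values of 0.235 and 0.251 from edgeR.

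Veh with control sets vehicle-treated stroke cortex beside the control libraries, whose surgery is not given. Htr3a was higher in Veh, and Gad1, Gad2, Slc32a1, Lhx6 and Reln differed by at most 0.12 on the log2 scale. The edgeR test called 0 of the 9 genes (1 at an unadjusted p under 0.05, as 16.3% of genes had), against 2.23% of 15126 genes, and DESeq2 called 1, Htr3a, against 6.48% of 17124 genes. No gene of the 9 had groups that did not overlap, against 9.66% of genes. Htr3a was at 4.22, 1.71, 2.21 and 2.51 CPM in control 19, 21, 36 and 38, below the 5.81 to 7.95 CPM of 3 Veh libraries but overlapping Veh 6 at 3.45 CPM through control 19. The group means were 5.86 ± 1.86 CPM in Veh and 2.66 ± 1.09 in control (SD, n = 4), with a fitted log2 fold change of 1.13 (standard error 0.31), or 2.18-fold, and an adjusted p of 0.11 from edgeR and 0.0233 from DESeq2. It was called by edgeR without control 19 (1.44, adjusted p = 0.0723) and without Veh 6 (1.31, adjusted p = 0.0761), and the deep-layer covariate left it at 1.04.

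Adarb2 was at 9.92 ± 2.16 CPM in Veh and 7.50 ± 1.53 in control (SD, n = 4), a log2 fold change of 0.41 (95% interval -0.01 to 0.83) with an adjusted p of 0.315 from edgeR, and it was 0.25 without Veh 10. Calb2 was at 7.82 ± 1.80 and 5.80 ± 1.48 CPM, a log2 fold change of 0.44 (95% interval -0.05 to 0.92). Reln had a log2 fold change of 0.12 (95% interval -0.16 to 0.40), and without Veh 10 it was 0.00. Gad1 was at 323 CPM in both groups, with a log2 fold change of 0.01 (95% interval -0.14 to 0.16), and Pvalb had one of -0.15 (95% interval -0.36 to 0.06). Of the other CGE genes, Nr2f2 rose from 3.97 ± 0.963 CPM in control to 8.26 ± 3.38 in Veh (SD, n = 4, log2 fold change 1.07, adjusted p = 0.0954 from edgeR), the 1 gene of 12 that edgeR called there. Nr2f2 is also a gene of venous vessels and of surface mesenchyme, its highest library was at 13.2 CPM in Veh, and the part of the leptomeninges was not tested. EdgeR called 0 of the 11 other MGE genes and 0 of the 6 genes of GABA uptake and breakdown (1 higher and 1 lower, and 2 higher, had an unadjusted p under 0.05), while DESeq2 called Slc6a13, a GABA transporter of the leptomeninges (log2 fold change 1.12, adjusted p = 0.0797 from DESeq2).

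Of 9 perineuronal net genes, the matrix that wraps Pvalb cells and carries the chondroitin sulfate proteoglycans, edgeR called 1 for Veh with control. Tnr, the gene of tenascin-R, fell from 60.4 ± 9.65 CPM in control to 41.0 ± 5.27 in Veh (SD, n = 4, log2 fold change -0.55, adjusted p = 0.0747 from edgeR), with no overlap. Acan, the gene of aggrecan, was low in all groups (4.96 ± 0.939 CPM in control and 4.35 ± 1.55 in Veh) with a log2 fold change of -0.18. In ISP with Veh, Tnr differed by 0.03, and edgeR called 0 of the 9 net genes, with 0 at an unadjusted p under 0.05 and 0 by DESeq2.

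ISP with control shares its ISP libraries with the first comparison and its control libraries with the second, so the values are given side by side and not as separate support. Reln was lower in ISP than in control, and the other 8 genes did not pass the test. The edgeR test called 1 of the 9 genes, lower, where 10.2% of 15232 genes were called and 3.42% were called lower, and DESeq2 called the same 1 (13.7% of 16806 genes). That gene was also the only 1 of the 9 with groups that did not overlap, lower, against 4.76% of genes. Of the 9, 2 had an unadjusted p under 0.05, Reln and Pvalb, against 22.3% of genes. Reln was at 38.1, 36.2, 32.6 and 40.7 CPM in control 19, 21, 36 and 38, each above the 25.9 to 29.9 CPM of the ISP libraries. The group means were 36.9 ± 3.42 and 28.1 ± 1.73 CPM (SD, n = 4), with a fitted log2 fold change of -0.39 (standard error 0.10), or 0.761-fold, and an adjusted p of 0.0403 from edgeR and 0.00868 from DESeq2. The edgeR call was lost without ISP 14 (adjusted p = 0.107), without ISP 18 (0.1125), without control 38 (0.123) and without ISP 14 and ISP 18 together, with the log2 fold change between -0.35 and -0.45 when 1 library was left out. Over the same comparison, 8 of 10 oligodendrocyte genes and 9 of 10 microglia genes were called higher in ISP, with summed levels of 4902 to 11740 against 3417 to 5145 CPM and of 548 to 1874 against 356 to 458 CPM, and their part in the Reln value was not tested. The Reln call was also lost with the deep-layer covariate (-0.23, adjusted p = 0.222) and when libraries were scaled to hold 15 pan-neuronal genes constant (-0.21, adjusted p = 0.241).

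That scaling moved the median of all genes by 0.18 in ISP with control, since the pan-neuronal list had a median of -0.16 there, and with it edgeR called Lhx6 higher in ISP (0.37, adjusted p = 0.0877). EdgeR called 2172 genes in all with that scaling, against 1547 with TMM scaling. With TMM scaling, Lhx6 was at 28.1 ± 3.52 CPM in control and 32.2 ± 3.65 in ISP (SD, n = 4, log2 fold change 0.19, adjusted p = 0.351 from edgeR). Pvalb was at 124 ± 16.0 CPM in control and 106 ± 10.4 in ISP (SD, n = 4), a log2 fold change of -0.23 with an unadjusted p of 0.0471 and an adjusted p of 0.217 from edgeR. Its highest control library, control 19 at 148 CPM, lay well above the other 3 at 111.1 to 119.7 CPM, and edgeR called Pvalb without ISP 16 (-0.30, adjusted p = 0.0928) and with GC content and gene length corrected (-0.30, adjusted p = 0.0941). With that correction edgeR called 2180 genes in all. Without control 19 the log2 fold change of Pvalb was -0.14 (adjusted p = 0.4125 from edgeR), and with pan-neuronal scaling it was -0.04 (adjusted p = 0.816). Gad1, Gad2 and Slc32a1 had log2 fold changes of 0.06, -0.02 and -0.09, whose 95% intervals were -0.11 to 0.22, -0.26 to 0.21 and -0.26 to 0.09. Htr3a, Adarb2 and Calb2 had 0.24, -0.25 and -0.16, with intervals of -0.46 to 0.94, -0.67 to 0.17 and -0.67 to 0.35, all of which include 0.

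Around the 9 genes in ISP with control, Kcnc1, the fast potassium channel Kv3.1 of Pvalb cells, fell from 278 ± 17.3 CPM in control to 235 ± 10.3 in ISP (SD, n = 4, log2 fold change -0.24, adjusted p = 0.0697 from edgeR). Abat, GABA transaminase, which breaks down GABA in neurons and astrocytes, was higher in ISP (270.0 ± 17.02 against 222.5 ± 22.7 CPM, n = 4, log2 fold change 0.28, adjusted p = 0.0782 from edgeR). Of the 9 net genes, Tnr was lower (log2 fold change -0.53, adjusted p = 0.0361 from edgeR) and Ncan, the gene of neurocan, higher (0.21, adjusted p = 0.0905 from edgeR). Astrocytes express Ncan, and 5 of 10 astrocyte genes were called higher in this comparison. The part of these cell types in the Abat and Ncan values was not tested.

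Ratios of counts within a library do not depend on library scaling, and 4 were compared in the 3 comparisons by a two-sided exact permutation test, 12 tests in all, where 0.0286 is the smallest p that 4 against 4 libraries can give. The ratio of Gad1 to Slc17a7, the vesicular glutamate transporter of excitatory cortical cells, sets 1 gene of inhibitory neurons beside 1 gene of excitatory neurons. Its log2 value was -2.61 ± 0.0893 in ISP, -2.85 ± 0.153 in Veh and -2.83 ± 0.228 in control (SD, n = 4). It was higher in all 4 ISP libraries than in all 4 Veh libraries, by 0.24 (exact permutation p = 0.0286, adjusted p = 0.171), which did not pass the correction. From edgeR, the log2 fold change in that comparison was 0.06 for Gad1 and -0.19 for Slc17a7. Slc32a1 and Gad2, which were not used in this ratio, were at -0.19 and -0.09. The log2 ratio of Adarb2 to Lhx6, a CGE over an MGE gene, was -2.35 ± 0.315 in ISP, -1.58 ± 0.370 in Veh and -1.92 ± 0.395 in control (SD, n = 4). It was lower in all 4 ISP than in all 4 Veh libraries, by 0.77 (difference -0.77, exact permutation p = 0.0286, adjusted p = 0.171), and ISP 14 and Veh 6 were the nearest. Gad1 to Gad2 and Pvalb to Gad1 differed by at most 0.28 in any comparison, with adjusted p-values of 0.343 or more from the exact permutation test.

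**Figure D5:**
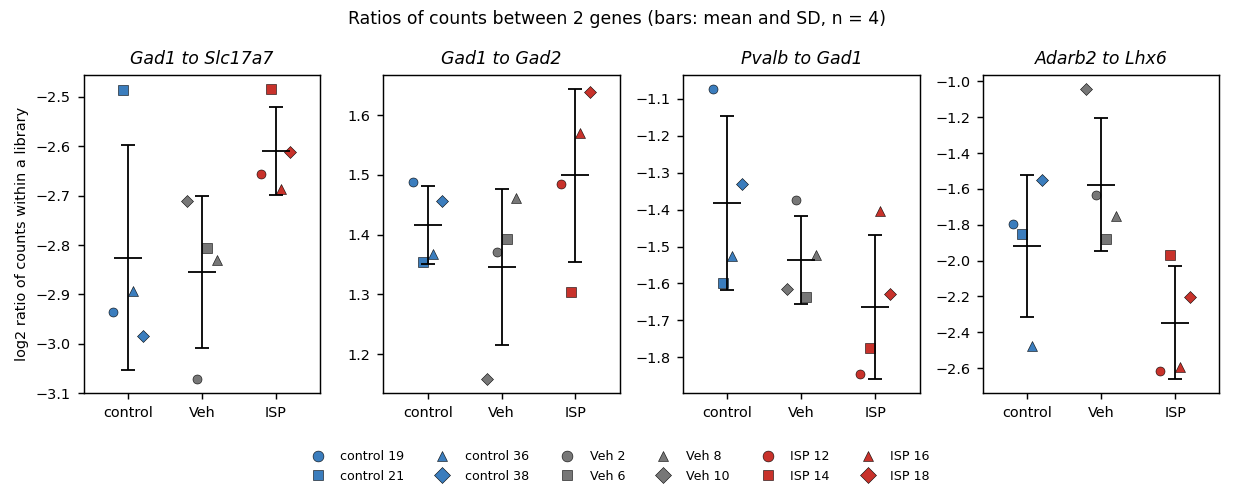
Log2 ratio of counts within each library (y axis, a separate scale in each panel) for Gad1 to Slc17a7, Gad1 to Gad2, Pvalb to Gad1 and Adarb2 to Lhx6, with control in blue, Veh in grey and ISP in red; bars give the mean and SD of 4 libraries. The ISP libraries lie above all Veh libraries for Gad1 to Slc17a7 and below all of them for Adarb2 to Lhx6, and the control libraries overlap both groups.

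The 9 genes varied among themselves in how steady they were over the 12 libraries. The root mean square deviation of log2 CPM from the gene's own mean was 0.08 for Gad1, 0.13 for Slc32a1, 0.14 for Gad2, 0.16 for Lhx6 and 0.16 for Pvalb. It was 0.26 for Reln, 0.35 for Adarb2, 0.38 for Calb2 and 0.64 for Htr3a, the gene with the fewest reads. For each gene the 3 genes with the most similar pattern over the 12 libraries were taken, by the root mean square difference of centred log2 CPM among 13515 genes. The nearest gene to Adarb2 was Kit (0.19), with Mustn1 (0.20) and Reln (0.21) after it. Kit, a receptor tyrosine kinase, is in the CGE list. For Htr3a the nearest were Ackr2 (0.36), Vip (0.37), the gene of the neuropeptide that many Htr3a cells make, and Gja4 (0.38). Reln was nearest to Rragd (0.09), Ntrk3 (0.12) and Pcdh8 (0.13). Gad1 (Tmem65, Usp7 and Hnrnph2, 0.04 to 0.05), Slc32a1 (Actl6b, Gnas and Pgs1, 0.05 to 0.06), Pvalb (Nsun5, Fam57b and Cx3cl1, 0.06 to 0.07) and Lhx6 (Pold3, Fam210b and Smc1a, 0.08 to 0.09) had nearest genes outside the interneuron lists, and so had Calb2 (Rnf8, Plppr3 and Mapk4, 0.17 to 0.19). These likenesses rest on the same 12 libraries, whose cell type content and depth they share.

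On GRCm38 (GENCODE M21), Gad1 lies at chr2:70553072-70602014 and Gad2 at chr2:22622205-22693874, Slc32a1 at chr2:158610767-158615748 and Lhx6 at chr2:36081953-36105408. Pvalb lies at chr15:78191114-78206400, Calb2 at chr8:110137502-110168210, Adarb2 at chr13:8202866-8768747, Reln at chr5:21884454-22344702 and Htr3a at chr9:48899213-48911099. All 9 are annotated as protein-coding. The cDNA did not keep strand, so reads of Gad1 and of the overlapping antisense gene Gad1os cannot be told apart where they share sequence. Gad1os itself had at most 0.236 CPM, a level that cannot show how many reads of the shared sequence were antisense. Antisense or overlapping transcripts are also annotated over Slc32a1 (Gm14205), Htr3a (Gm32335) and Reln (Gm10475 and Gm16110), and their share of the reads was not tested.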

How the data were processed

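RNA-seq counts of 12 mouse cortex libraries were analysed, 4 each for control, Veh and ISP, grouped by their labels. The authors mapped the reads with HISAT2 (build mm10), ran HTSeq in its default mode to count genes, and deposited 1 table of raw read counts, used here as deposited. They tested with DESeq2, calling genes at an adjusted p under 0.1 with a log2 fold change above 0.5, whereas calls here use the adjusted p alone. Tool versions were not given in the sources used here, and the library kit was poly(A)-selected and unstranded.

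For each comparison, the 8 libraries concerned entered edgeR 4.0.16 (R 4.3.3), with filterByExpr by group, TMM factors, the quasi-likelihood test and Benjamini-Hochberg adjustment over all genes tested, called under 0.1. Intervals are 95%. Levels are TMM-normalized CPM. Count ratios had 0.5 added to each count and were tested with SciPy 1.17.1 by exact permutation. The scripts were tested on simulated data. Alternatives were DESeq2 1.42.0, its size factors, other filters, limma-voom (limma 3.58.1) with quality weights, all libraries in 1 fit, pan-neuronal scaling, an offset for GC content and length (loess span 0.3, known for 99.09% of genes), a threshold of 0.05, each library left out, and ISP 14 and ISP 18 left out. The deep-layer covariate and DESeq2 with libraries left out were added after the values were seen.

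The 9 genes and 17 further lists were chosen with earlier results of these data known. Named from each list were its first 4 genes and up to 6 called ones, and for each of the 9 genes the 3 most alike with a mean CPM of at least 1, leaving out predicted genes; a few genes so named are not reported here. Genes were matched to GENCODE M21 by symbol (24373) or synonym (353).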

Additional observations from a re-analysis of the deposited data

Results flagged for a closer look

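Of 39 groups of 4 libraries tested for a library far from the other 3 (by Dixon's 95% critical value, which chance exceeds in about 1 in 20 groups), 2 held one, both of them Veh 10. Gad2 was at 137.9 CPM in Veh 10, with the other Veh libraries at 123 to 125 CPM (gap 0.902 of the group's range). Lhx6 was at 26.8 CPM in Veh 10, with the others at 29.9 to 30.1 CPM (gap 0.930). Veh 10 also had the highest leptomeninges list and the lowest deep-layer list of the Veh libraries, and their part in these values was not tested.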

How the results depend on the processing

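No paired analysis was possible because the groups share no replicate numbers. For ISP with Veh, edgeR called 0 of the 9 genes and DESeq2 2, with 0 to 1 from edgeR and 0 to 3 from DESeq2 when 1 library was left out (1 without ISP 12 or ISP 16), and 0 from DESeq2 without ISP 14 and ISP 18. For Veh with control the count of 0 became 1 (Htr3a) with DESeq2, with no filter, and without Veh 6 or control 19 (range 0 to 1). For ISP with control the count of 1 became 2 with GC content and length corrected (Reln and Pvalb), 0 with the deep-layer covariate, 0 without ISP 14 and ISP 18, and 0 to 2 when 1 library was left out. Pan-neuronal scaling moved the median of all genes by 0.10, 0.07 and 0.18 in the 3 comparisons and kept the last count at 1, with Lhx6 in place of Reln. For ISP with control edgeR called 1547 genes in all in the main fit and 2172 with that scaling. It called 2180 with GC content and length corrected and 1328 with the covariate. For Veh with control these totals were 337, 59, 28 and 53 in the same order. Totals with no filter or with libraries left out are not given here.

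Signs turned for log2 fold changes near 0. In ISP with Veh, Gad1 became -0.046 with the GC and length offset and -0.014 with the deep-layer covariate, Gad2 became 0.0050 with pan-neuronal scaling, and Pvalb 0.036 with that scaling and 0.026 with the covariate. In Veh with control, Lhx6 became -0.036 with the offset, and leaving out 1 library gave -0.031 to 0.061 for Gad1, -0.023 to 0.12 for Lhx6 and -0.082 to 0.084 for the log2 ratio of Gad1 to Slc17a7. In ISP with control, Gad1 became -0.030 with the offset, pan-neuronal scaling gave Gad2 0.15, Slc32a1 0.095 and Calb2 0.0088, the covariate gave Calb2 0.085, and leaving out 1 library gave Gad2 -0.090 to 0.052. The causes were not tested. Reln, Adarb2, Htr3a and Calb2 kept their lower log2 fold change in ISP with Veh under DESeq2, its size factors, pan-neuronal scaling, the offset, the covariate and each library left out. Counts of 40 to 276 reads limit Htr3a, Calb2 and Adarb2, and 4 mice per group limit all tests.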
